A study of Mus musculus with 9 samples.

Results

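AP-1 is a family of dimeric transcription factors built from a Jun protein (Jun, Junb or Jund) and a partner. The partner can be a Fos protein (among them Fos, Fosb and Fosl2) or a relative such as Atf3. Genes of this kind that are transcribed soon after a stimulus, with no need for newly made protein, are called immediate early genes, and Ier2 and Ier3 are named for it. In T cells AP-1 acts with NFAT at cytokine genes after the antigen receptor and a costimulatory receptor are engaged, and Fos and Jun transcripts are also known to rise during the isolation of cells from tissue. The 9 genes were taken by name (Jun, Junb, Jund, Fos, Fosb, Fosl2, Atf3, Ier2 and Ier3). Earlier results of these data were known when they were chosen. Shares of all probe sets beside the member counts are therefore given as description only. The 9 genes are measured by 10 of the 22626 probe sets that are not controls, Jun by 2 and the others by 1 each. Jund carries its older symbol Jund1 in the deposited annotation and was found through its Entrez number.

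The 3 groups hold 3 Affymetrix Mouse_430A_2 arrays each. Postmitotic cells are CD44-lo, CD62L-hi CD8+ T cells, and effector cells, which the labels call effector memory, are CD44-hi, CD62L-lo CD8+ T cells. Both came from male B6/SJL mice that had been lethally irradiated with 10 Gy and given CD44-lo, CD62L-hi CD8+ T cells of female C3H.SW mice plus marrow depleted of T cells, a transplant that causes graft-versus-host disease, and each preparation pooled 4 recipients on day 14. The labels mention no marker that tells donor from recipient or marrow-derived cells in either population. Naive cells are CD44-lo, CD62L-hi CD8+ T cells pooled from 2 normal female C3H.SW mice for each preparation, with neither irradiation nor transplant. The deposited values are log2 signals with an offset, so a probe set with no signal reads 6.64, the lowest possible value is 5.64, and folds of dim genes are understated.

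Arrays of a group correlated at 0.972 to 0.984 over all probe sets, Cd44 averaged 7.33 ± 0.40 in postmitotic, 11.11 ± 0.20 in effector and 7.28 ± 0.33 in naive cells (SD, n = 3 each), and the T cell receptor chain gene Cd3g lay between 13.79 and 14.37 on every array. Cd8b1 lay between 10.84 and 11.64, and Cd8a was not analysed here. Transcripts of Y-linked genes, which mark male recipient cells, stood out on 2 arrays. Eif2s3y read 11.47 on the postmitotic array of replicate 3 and 9.50 on the effector array of replicate 3, while the highest of the other 7 was 7.02. Each call of a member probe set is also given without these arrays, as are some of the counts and other genes, but not all. The summed signal of 14 myeloid markers was 1211 to 3271 in postmitotic, 3059 to 7136 in effector and 2749 to 3562 in naive arrays. Of the myeloid markers none was called in postmitotic minus naive. The summed signal of 6 NK cell markers, which cytotoxic T cells also express in part, was 23792 to 24536 in postmitotic, 47766 to 51209 in effector and 17110 to 17569 in naive arrays, with Klrb1c at or below no signal throughout. The summed signal of 6 CD4 and regulatory T cell markers was 1019 to 1107 in postmitotic, 6526 to 7312 in effector and 606 to 699 in naive arrays. For 8 dendritic and class II markers the sums were 1202 to 4187 in postmitotic, 4132 to 4710 in effector and 1182 to 1542 in naive arrays, and their part in the members' levels was not tested. Called higher in postmitotic minus naive were 2 NK cell markers, 1 CD4 or regulatory T cell marker and no dendritic or class II marker. In effector minus naive these counts were 3, 2 and 3, and of the myeloid markers 1 was higher and 1 lower. In postmitotic minus effector, 3 NK cell, 2 CD4 or regulatory T cell, 1 dendritic or class II and 2 myeloid markers were lower. None of those lists held a higher one. For 10 B and plasma cell markers the sums were 6695 to 7404 in postmitotic and 8407 to 8467 in naive arrays. In effector arrays they were 4974 to 6095. None was called in postmitotic minus naive, 2 were lower in effector minus naive and 1 was higher in postmitotic minus effector. In such bulk samples, more cells of a type and more RNA in each cell cannot be told apart.

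Promoter sequences are shown for the 3 AP-1 genes that were higher in postmitotic cells than in both other groups (Fos, Jun and Junb) and for Ier3, which was highest in effector cells. Each runs from 250 bases before to 50 bases after the start site that RefSeq annotates on GRCm38.p6, and 8 of the 9 genes had an entry. They lie at chr12:85473640-85473939 on the plus strand for Fos, chr4:95052173-95052472 on the minus strand for Jun, chr8:84978699-84978998 on the minus strand for Junb and chr17:35821463-35821762 on the plus strand for Ier3. Capitals mark matches, on either strand, to the motifs described next.
Fos: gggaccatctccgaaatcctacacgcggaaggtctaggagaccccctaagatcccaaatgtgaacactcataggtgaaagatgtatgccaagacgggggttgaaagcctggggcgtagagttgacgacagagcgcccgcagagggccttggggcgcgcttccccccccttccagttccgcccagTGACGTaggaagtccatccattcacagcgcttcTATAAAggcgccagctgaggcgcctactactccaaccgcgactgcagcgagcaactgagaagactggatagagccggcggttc
Jun: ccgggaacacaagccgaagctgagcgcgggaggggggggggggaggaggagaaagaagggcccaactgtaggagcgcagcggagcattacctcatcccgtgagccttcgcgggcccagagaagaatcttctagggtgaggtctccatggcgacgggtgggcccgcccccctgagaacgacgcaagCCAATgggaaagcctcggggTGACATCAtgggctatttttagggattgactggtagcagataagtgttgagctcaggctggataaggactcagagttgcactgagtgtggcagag
Junb: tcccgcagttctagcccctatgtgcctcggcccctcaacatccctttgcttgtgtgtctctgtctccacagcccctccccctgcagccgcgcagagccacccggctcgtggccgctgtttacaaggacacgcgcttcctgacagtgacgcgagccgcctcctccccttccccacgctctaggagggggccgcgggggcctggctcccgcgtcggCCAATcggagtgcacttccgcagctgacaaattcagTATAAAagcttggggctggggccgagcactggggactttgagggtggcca
Ier3: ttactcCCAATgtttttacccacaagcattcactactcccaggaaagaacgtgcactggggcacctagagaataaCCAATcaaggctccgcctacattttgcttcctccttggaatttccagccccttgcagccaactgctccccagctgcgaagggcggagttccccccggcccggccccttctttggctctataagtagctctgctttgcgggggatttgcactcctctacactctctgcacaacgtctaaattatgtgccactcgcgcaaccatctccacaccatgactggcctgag

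The motifs searched on both strands were the AP-1 site TGANTCA, an 8-base cAMP response element (CRE) or its variants (TGACNTCA), the short CRE core TGACGT, which lies inside 1 form of the 8-base element, CCAAT, the TATA box TATAAA, and the CArG box that serum response factor binds. Positions are counted from the annotated start, with the base before it as -1. Jun held TGACATCA, a match to the 8-base element, at -45 to -38, and none of the other 7 windows held one, while 8.83% of all 32851 promoter windows did. Fos held the short CRE core at -66 to -61 and Atf3 one at -8 to -3, on the opposite strand, against 7.51% of all windows. CCAAT was found in Jun, Junb, Ier3 and Atf3 (37.4% of all windows) and TATAAA in Fos and Junb (13.6%), in Junb at 1 to 6. The AP-1 site and the CArG box were in none of the 8 windows, and in 7.81% and 1.63% of all windows. Sequence further than 250 bases before the start was not searched, so sites there would be missed. The map of motif matches shows that no single motif was held by all 3 of Fos, Jun and Junb.

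**Figure D1:**
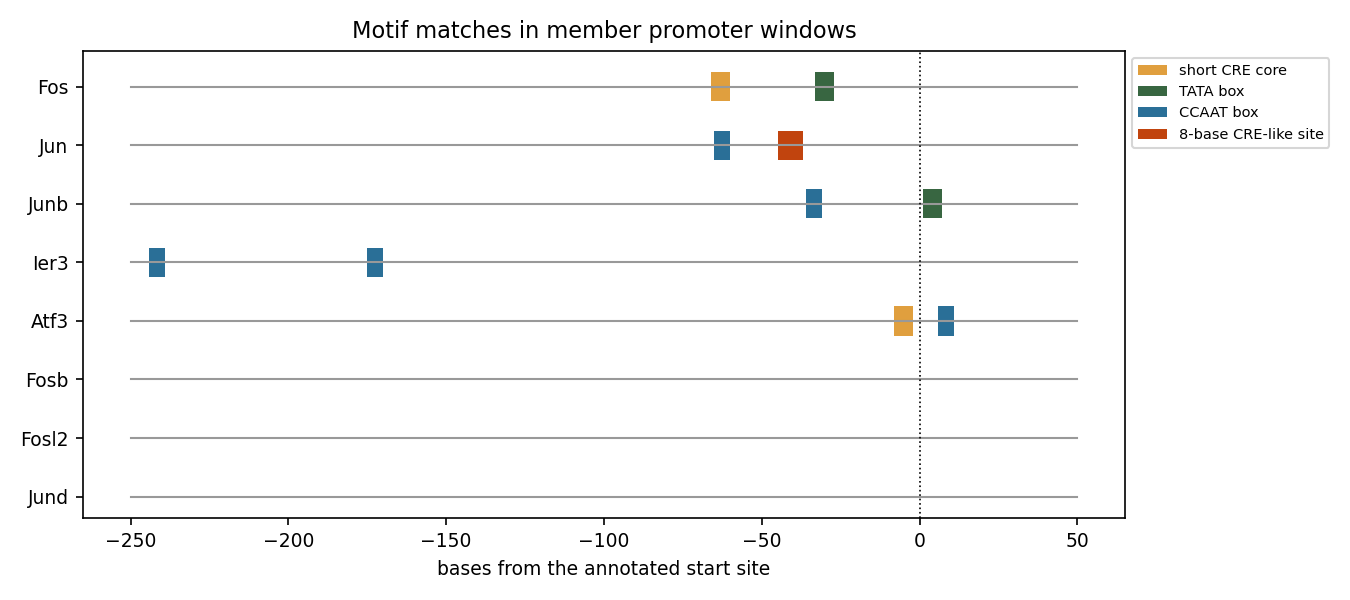
Motif matches in the promoter windows of 8 member genes, drawn by their distance in bases from the annotated start site (dotted line). Colours stand for the motif; Jun alone has the 8-base CRE-like match, at -45 to -38, and Fosb, Fosl2 and Jund have no match.

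Postmitotic cells were set against naive cells, which share their surface phenotype but never passed through a recipient. Jun, Fos, Junb and Ier3 rose in postmitotic cells, Jun 6.09-fold at its brighter probe set, Fos 4.02-fold, Ier3 3.11-fold and Junb 1.98-fold. Jund, Fosb, Fosl2, Atf3 and Ier2 did not pass. That is 5 of 10 member probe sets called higher and none lower at an adjusted p under 0.05, where 8.19% of all probe sets were called in either direction (4.23% higher and 3.96% lower). The median log2 difference of the members was 0.62, and that of all probe sets was -0.01.

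Against effector cells, the other population recovered from the same kind of recipient, postmitotic cells had higher Jun (8.02-fold), Fos (2.81-fold), Junb (1.81-fold) and Ier2 (1.32-fold) and lower Ier3 (3.82-fold lower). Of 10 member probe sets 5 were called higher and 1 lower, against 20.0% of all probe sets called in either direction (10.4% higher and 9.68% lower). Both Jun probe sets, Fos and Junb were higher in postmitotic cells than in each of the other groups, which held for 1.23% of all probe sets. No member probe set was lower in postmitotic cells than in both, which held for 0.857% of all probe sets.

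In effector cells set against naive cells, Ier3 rose 11.89-fold, and Fos (1.43-fold) and Fosb (1.84-fold) passed by a small margin, while Jun, Junb, Jund, Fosl2, Atf3 and Ier2 did not pass. The count was 3 of 10 higher and none lower, against 26.0% of all probe sets called in either direction (12.4% higher and 13.6% lower), so the members' share lay near that of all probe sets. The 3 comparisons share their groups and are not independent of each other.

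**Figure D2:**
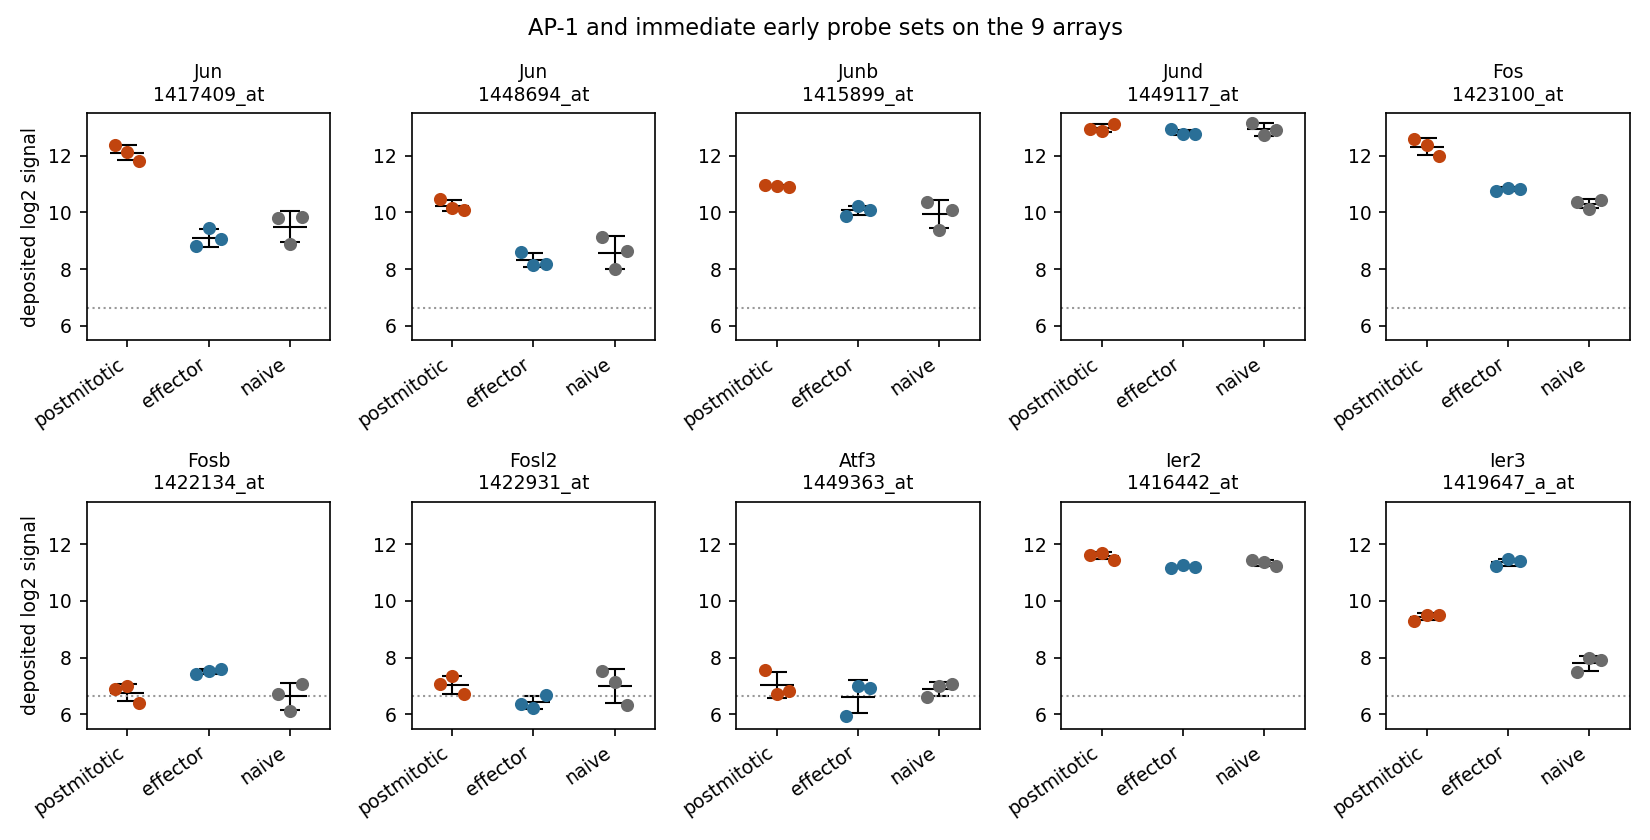
Deposited log2 signal of each member probe set on each array, by group, with the mean and SD of 3 arrays in black and the level of no signal (6.64) as a dotted line. For both Jun probe sets, Junb and Fos the 3 postmitotic arrays lie above all 6 others, and for Ier3 the 3 groups lie apart with effector arrays on top.

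Jun is the founding member of the family and can bind DNA as a pair with itself or with a Fos protein. Its brighter probe set, 1417409_at, read 12.36, 12.13 and 11.82 on the postmitotic arrays, 8.81, 9.44 and 9.05 on the effector arrays and 9.80, 8.87 and 9.82 on the naive arrays. All 3 postmitotic arrays stood above the other 6, and effector and naive arrays overlapped. The log2 difference was 2.61 (SE 0.287, adjusted p = 0.00261, limma) in postmitotic minus naive and 3.00 (SE 0.287, adjusted p = 0.000188) in postmitotic minus effector. In effector minus naive it was -0.40, with a 95% interval from -1.06 to 0.26. The second probe set of Jun, 1448694_at, was dimmer and showed the same order. It read 10.46, 10.16 and 10.08 in postmitotic, 8.60, 8.15 and 8.19 in effector and 9.13, 7.99 and 8.64 in naive cells, so the postmitotic arrays were again above all others. Its log2 differences were 1.65 (adjusted p = 0.0114) and 1.92 (adjusted p = 0.00166). Without both arrays with Y-linked signal the brighter probe set still passed against naive cells (2.75, adjusted p = 0.0324) and effector cells (3.12, adjusted p = 0.00599), and the dimmer one passed against effector cells (1.94, adjusted p = 0.0273) but not against naive cells (1.73, adjusted p = 0.0738). It did not pass against naive cells either when only the 6 arrays compared were fitted (adjusted p = 0.0534).

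Junb often acts as a weaker activator that can restrain Jun. It read 10.95, 10.94 and 10.89 in postmitotic, 9.88, 10.22 and 10.10 in effector and 10.35, 9.38 and 10.08 in naive cells. The postmitotic arrays were the 3 highest, the naive arrays were the most spread out, and effector and naive arrays overlapped. The differences were 0.99 (SE 0.228, adjusted p = 0.0358) from naive and 0.86 (SE 0.228, adjusted p = 0.0309) from effector cells. Both calls lay close to the threshold. The call against naive cells was lost without any 1 of the 3 postmitotic arrays, any 1 of the 3 effector arrays or naive replicate 3 (adjusted p up to 0.0961), and that against effector cells without any 1 of the 3 postmitotic or 3 effector arrays (adjusted p up to 0.103). Without both arrays with Y-linked signal the differences were 1.01 (adjusted p = 0.145) and 0.89 (adjusted p = 0.15).

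Jund, the family member known for steady expression in resting cells, stayed within a narrow range. It read 12.92, 12.85 and 13.12 in postmitotic, 12.92, 12.76 and 12.77 in effector and 13.16, 12.71 and 12.89 in naive cells, and the groups overlapped in each comparison. The 95% intervals of its log2 differences ran from -0.28 to 0.36 in postmitotic minus naive, -0.18 to 0.46 in postmitotic minus effector and -0.42 to 0.22 in effector minus naive.

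Fos, which pairs with Jun proteins but not with itself, was the most clearly separated Fos gene. It read 12.58, 12.36 and 11.99 in postmitotic, 10.74, 10.87 and 10.84 in effector and 10.36, 10.12 and 10.42 in naive cells. No 2 groups overlapped, and the order was postmitotic, effector, naive. The log2 differences were 2.01 (SE 0.160, adjusted p = 0.000651) from naive and 1.49 (SE 0.160, adjusted p = 0.000358) from effector cells. Leaving out any 1 array kept both calls, with ranges of 1.87 to 2.17 and 1.36 to 1.65. Without both arrays with Y-linked signal the differences were 2.17 (adjusted p = 0.00702) and 1.66 (adjusted p = 0.00294). The smaller step from naive to effector cells, 0.51 (SE 0.160, adjusted p = 0.0464), was lost without any 1 of the 3 effector or 3 naive arrays or postmitotic replicate 2 (adjusted p up to 0.13), and without both arrays with Y-linked signal (0.50, adjusted p = 0.0651).

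Fosb and Fosl2, which encodes Fra-2, were close to no signal (6.64), where log2 differences are only approximate. Fosb read 6.89, 6.99 and 6.42 in postmitotic, 7.41, 7.52 and 7.61 in effector and 6.73, 6.11 and 7.07 in naive cells. The effector arrays were the 3 highest. The effector rise over naive cells was 0.88 (SE 0.248, adjusted p = 0.0318), and 1.92 (adjusted p = 0.029) with a smaller offset in the log. It was lost without any 1 of the 3 effector arrays or naive replicate 1 or 2 (adjusted p up to 0.0975), without both arrays with Y-linked signal (0.83, adjusted p = 0.0924) and with every value under the 40th percentile set to that percentile (0.08, adjusted p = 0.175). Postmitotic minus effector was -0.75 (adjusted p = 0.0719). That difference passed when only the 6 arrays compared were fitted (adjusted p = 0.03), without naive replicate 2 (adjusted p = 0.024) or 3 (adjusted p = 0.0486), and with the smaller offset (-1.77, adjusted p = 0.0476).

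Fosl2 read 7.07, 7.35 and 6.71 in postmitotic, 6.37, 6.23 and 6.68 in effector and 7.52, 7.13 and 6.35 in naive cells, and 2 effector arrays were at or below no signal. The postmitotic arrays lay just above the effector arrays (log2 difference 0.61, adjusted p = 0.208), and the naive arrays overlapped both other groups. Effector minus naive was -0.57 (adjusted p = 0.215), and -0.90 (adjusted p = 0.0326) without naive replicate 3. Atf3, a stress-induced member of the ATF and CREB family that often acts as a repressor, read 7.57, 6.73 and 6.81 in postmitotic, 5.95, 6.99 and 6.93 in effector and 6.63, 7.01 and 7.07 in naive cells. Its groups overlapped in all 3 comparisons. The interval of its postmitotic minus naive difference ran from -0.62 to 0.88, so a change in either direction of moderate size was not detectable at this signal.

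**Figure D3:**
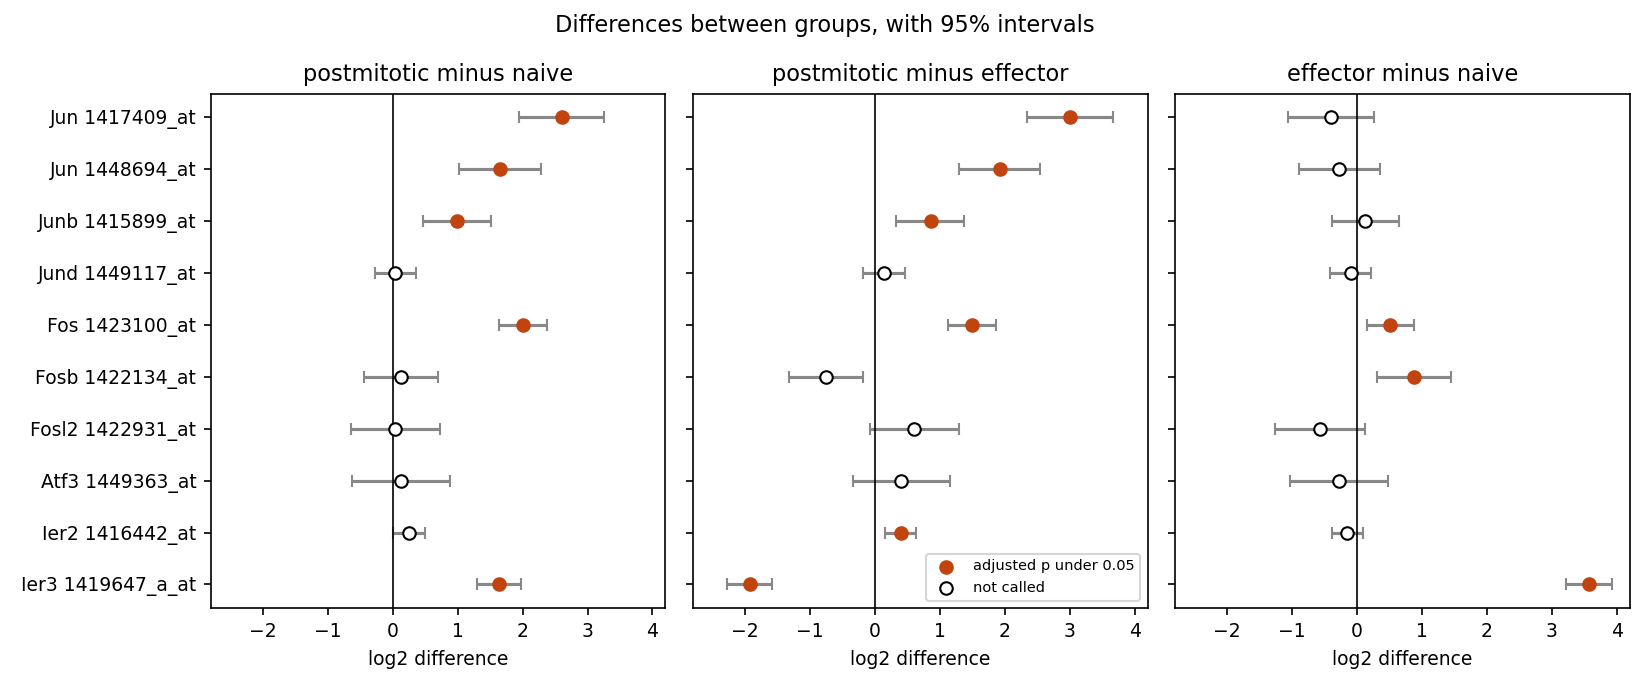
Log2 difference of each member probe set in the 3 comparisons, with 95% intervals from the limma fit that are not adjusted for multiple tests; filled points passed at an adjusted p under 0.05. Jun, Junb and Fos lie to the right of 0 in both comparisons of postmitotic cells, and Ier3 lies right of 0 against naive cells and left of 0 against effector cells.

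Ier2, a nuclear protein of the immediate early class, differed by small amounts. It read 11.62, 11.69 and 11.45 in postmitotic, 11.15, 11.25 and 11.18 in effector and 11.43, 11.36 and 11.22 in naive cells. Postmitotic arrays did not overlap with either other group, and effector and naive arrays did. The difference from effector cells was 0.40 (SE 0.106, adjusted p = 0.031) and that from naive cells 0.25 (adjusted p = 0.2). The call against effector cells was lost without any 1 of the 3 effector arrays or postmitotic replicate 1 or 2 (adjusted p up to 0.101), and without both arrays with Y-linked signal (0.46, adjusted p = 0.0843).

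Ier3, which encodes the stress-inducible protein IEX-1 that acts on survival and on ERK and NF-kB signalling, was separated between all 3 groups. It read 9.30, 9.49 and 9.52 in postmitotic, 11.23, 11.47 and 11.40 in effector and 7.49, 7.98 and 7.92 in naive cells. No arrays overlapped, with effector cells highest and naive cells lowest, the order that the summed NK cell markers and the summed CD4 and regulatory T cell markers also had. The part of these markers' cells in the level of Ier3 was not tested. Effector minus naive was 3.57 (SE 0.151, adjusted p = 2.39e-06), postmitotic minus naive 1.64 (SE 0.151, adjusted p = 0.00125) and postmitotic minus effector -1.93 (SE 0.151, adjusted p = 7.1e-05). These 3 calls held without any 1 array and without both arrays with Y-linked signal (3.55, 1.59 and -1.96).

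In all, 6 of 10 member probe sets did not overlap between postmitotic and naive arrays, 8 of 10 between postmitotic and effector arrays and 3 of 10 between effector and naive arrays. Over all probe sets the shares were 26.5%, 38.8% and 41.6%. The authors' deposited table gives folds and unadjusted p-values of its own, with a selection rule of p under 0.01 and a fold over 1.5. Here that rule was applied to folds in either direction. By that rule the authors' deposited table holds 5 member probe sets for postmitotic against naive, 4 for postmitotic against effector and 1 for effector against naive cells. Of the 4, Ier3 was lower in postmitotic cells in the authors' deposited table (fold 0.2616), and the others were higher. In the authors' deposited table Junb against effector cells (p = 0.01383) and Ier2 against effector cells (fold 1.317) did not meet the rule.

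Across the 9 arrays the members fell into patterns that can be given as Pearson correlations, which mostly follow the group means. The brighter Jun probe set correlated with the dimmer one at 0.96, with Junb and with Fos at 0.92 each, with Ier2 at 0.87 and with Jund at 0.37. Ier3 correlated with Fosb at 0.75 and with Jun at -0.17. Among 5064 other genes with a range of at least 1 log2 unit, those most like Jun were Plac8 (0.976), Mrps34 (0.973) and Ppp1r15a (0.963), which encodes a stress-induced phosphatase subunit. Those most like Fos were Ly6a (0.984), which encodes Sca-1, Aqp9 (0.983) and Usp18 (0.982). Those most like Junb were Lst1 (0.971), Cacnb3 (0.955) and Noc4l (0.955), those most like Ier2 were C8g (0.981), Car12 (0.973) and Ctsz (0.956), and those most like Ier3 were Agpat3 (0.996), Ncapg (0.995) and Vmp1 (0.994). Jund varied little and Fosb, Fosl2 and Atf3 were near no signal, and their best matches reached 0.907 for Jund, 0.971 for Fosb, 0.947 for Fosl2 and 0.910 for Atf3.

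Other immediate early genes went both ways in each comparison. Of 37 measured, 7 were higher and 5 lower in postmitotic than in naive cells, 10 higher and 12 lower in postmitotic than in effector cells, and 12 higher and 9 lower in effector than in naive cells. Their median log2 differences were -0.05, -0.02 and 0.17, against -0.01, 0.03 and -0.05 over all probe sets. As a background for this and the following lists, all genes were also fitted with 1 probe set a gene. Of 13152 genes, 1556 were then called in either direction in postmitotic minus naive, 3280 in postmitotic minus effector and 4052 in effector minus naive. Whether any list differs from this background was not tested. The growth arrest gene Gadd45g was higher in postmitotic cells by 3.94 over naive and 2.50 over effector cells (adjusted p = 0.000152 and 0.000139). Postmitotic cells also had more Rgs1, which damps chemokine receptor signalling (1.53), and Nfkbiz (1.22) than naive cells, and more of the kinase Sgk1 (1.40) and of Myc (1.30) than effector cells. The zinc finger factors Egr1 (-0.77) and Egr2 (-0.96), induced through the antigen receptor, and the antiproliferative Btg2 (-1.19) were lower in postmitotic than in naive cells. In effector cells the orphan nuclear receptor Nr4a2 (3.51), Rgs1 (3.51) and the GTPase Gem (2.46) rose over naive cells, and Klf2 (-1.47), Btg2 (-1.17) and Sgk1 (-1.14) fell. Postmitotic cells were below effector cells in Nr4a2 by -3.06, Gem by -2.05 and Rgs1 by -1.98.

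The counts against naive cells were the least stable. Without both arrays with Y-linked signal, 4 were higher and 2 lower in postmitotic than in naive cells, and Egr1 (adjusted p = 0.0635) and Nfkbiz (adjusted p = 0.0549) did not pass. Without any 1 effector array or postmitotic replicate 2 the higher count was 4, and without naive replicate 2 or 3 or postmitotic replicate 2 the lower count was 3.

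**Figure D4:**
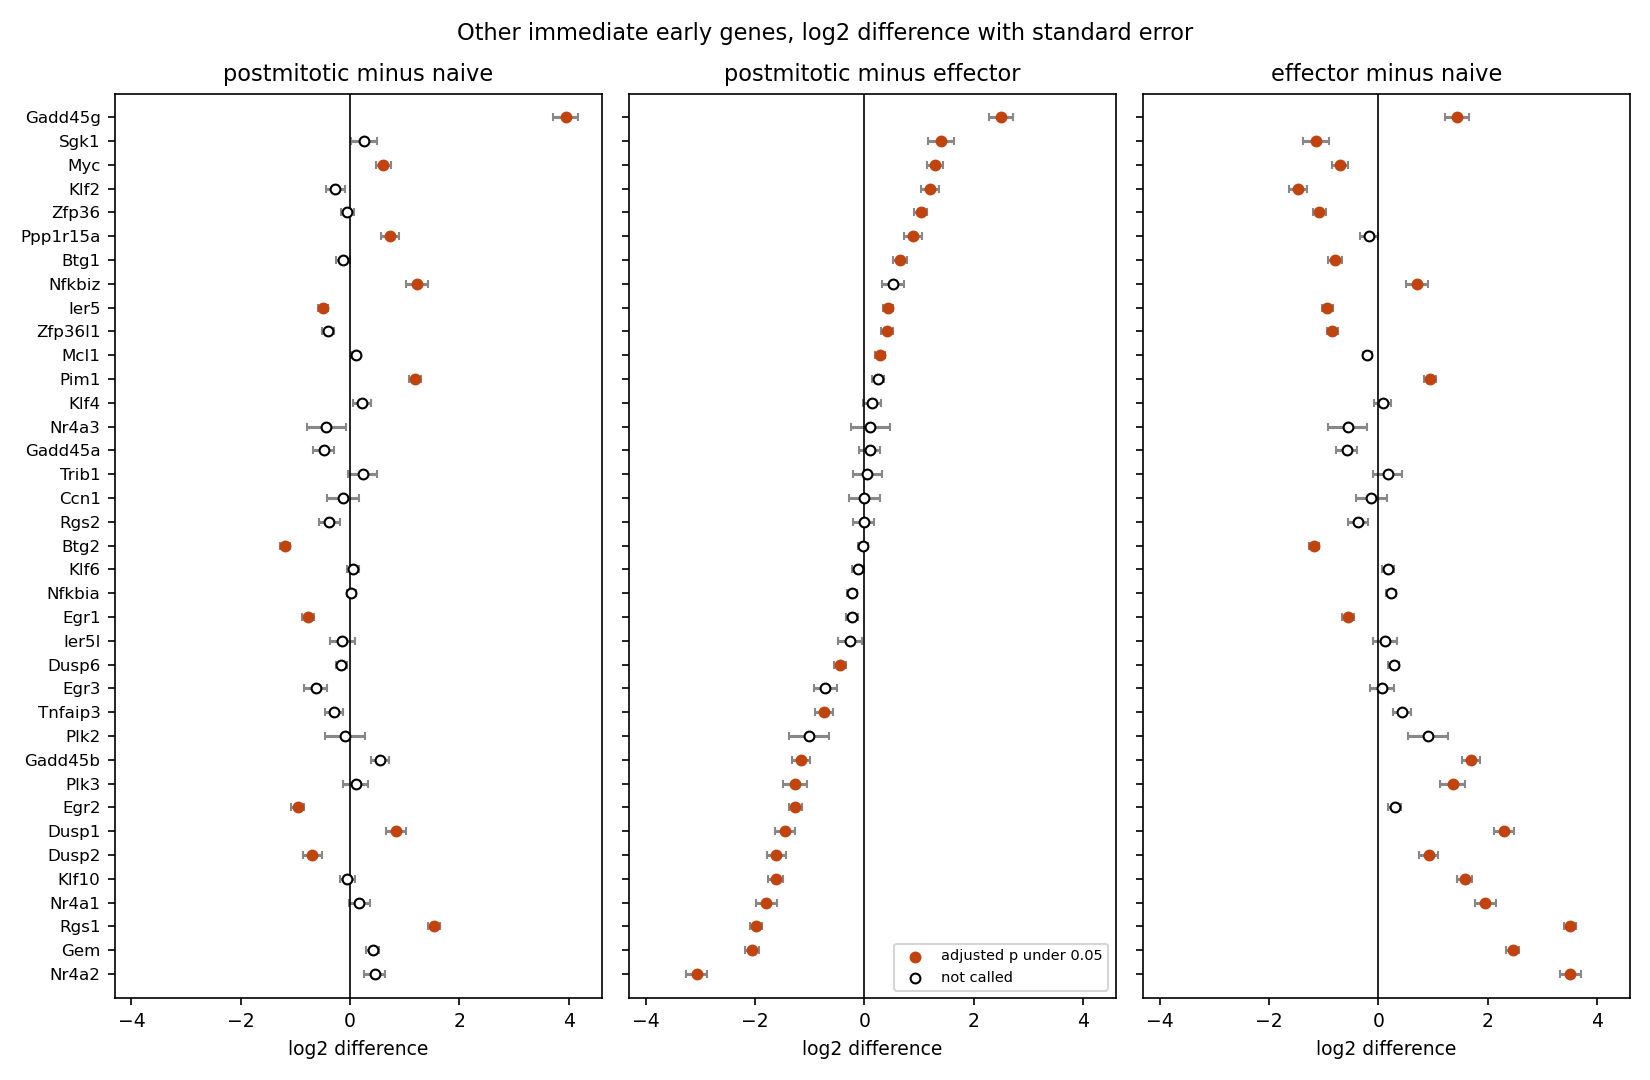
Log2 difference of 37 other immediate early genes in the 3 comparisons, in the order of postmitotic minus effector, with standard errors; filled points passed at an adjusted p under 0.05. Gadd45g stands at the top of the comparisons of postmitotic cells (3.94 and 2.50), and Nr4a2, Gem and Rgs1 are the lowest in postmitotic minus effector.

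The leucine zipper proteins that pair or compete with AP-1 went both ways. Of 24 measured, 2 were higher and 4 lower in postmitotic than in naive cells, 6 higher and 6 lower in postmitotic than in effector cells, and 8 higher and 6 lower in effector than in naive cells. In postmitotic cells Cebpb (1.22, adjusted p = 0.00353) and Atf4 (0.45, adjusted p = 0.0276) were above naive cells. Crem (-0.65), Bach1 (-0.63) and Bach2 (-0.53), a repressor that competes for AP-1 sites, were below. None of the 3 passed when all probe sets of a gene were averaged, with -0.12 for Crem (adjusted p = 0.608), -0.42 for Bach1 (adjusted p = 0.137) and 0.05 for Bach2 (adjusted p = 0.922). Except for Cebpb, the calls against naive cells were fragile. With only the 6 arrays compared, or without both arrays with Y-linked signal, 1 gene was higher and none lower. The lower count was 0 without naive replicate 3 and 2 without postmitotic replicate 2. It was 3 without naive replicate 2, where Crem (adjusted p = 0.0503) and Bach2 (adjusted p = 0.0611) did not pass. The higher count was 1 without any 1 array other than naive replicate 3. Effector cells had more Jdp2 (3.10), a repressor that pairs with Jun, Batf (2.28), which pairs with Jun proteins to drive effector programs, and Cebpb (1.21), and less Bach2 (-2.70), Nfe2l2 (-1.29) and Bach1 (-1.22) than naive cells. Postmitotic cells lay below effector cells in Jdp2 (-2.76), Crem (-1.79) and Batf (-1.61) and above them in Bach2 (2.17), Maff (1.12, from near no signal) and Nfe2l2 (1.06). Maff did not pass without effector replicate 1 or 3 or postmitotic replicate 1 or 2 (adjusted p up to 0.0976), and without both arrays with Y-linked signal the lower count in postmitotic minus effector was 3.

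Among kinases and factors that lie upstream of AP-1, Map3k8, which encodes a kinase that activates the ERK pathway, was higher in postmitotic than in naive cells by 2.93 (adjusted p = 0.000194) and than in effector cells by 1.18 (adjusted p = 0.00202, and 0.0758 with a smaller offset in the log). Map3k8 was also higher in effector than in naive cells, by 1.75 (adjusted p = 0.000193). Of 24 measured, 2 were higher and 4 lower in postmitotic than in naive cells. Without both arrays with Y-linked signal 1 was higher and none lower. The lower count was 1 without any 1 effector array, naive replicate 3 or postmitotic replicate 2 or 3, and the higher count was 1 without effector replicate 3, naive replicate 1 or 3 or postmitotic replicate 1 or 2. In postmitotic minus effector 3 were higher and 7 lower (4 lower without both arrays with Y-linked signal), and in effector minus naive 8 were higher and 3 lower. Cops5, a subunit of the COP9 signalosome that binds Jun, differed by 0.49 (adjusted p = 0.0237) in postmitotic minus naive, and by 0.37 (adjusted p = 0.234) when all its probe sets were averaged. Among the 4 lower genes were Map2k6 (-0.71), Mapk14 (-0.63) and Mrtfa (-0.55), and Mapk14, which encodes p38 alpha, differed by -0.16 (adjusted p = 0.615) when its probe sets were averaged. Elk3, a ternary complex factor that acts with serum response factor, rose by 1.45 in effector over naive cells, and its relative Elk4 fell by 1.36. Postmitotic cells were below effector cells in Elk3 (-1.62), the kinase Map2k3 (-0.99) and Mapk3 (-0.96), which encodes ERK1.

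Heat shock genes, which like Fos and Jun can respond to the handling of cells, were called lower or not called against naive cells. In postmitotic minus naive none of 13 was higher and 4 were lower, with Hsph1 at -1.59 (adjusted p = 0.000322), Dnaja1 at -0.99 and Dnajb1 at -0.77. Without both arrays with Y-linked signal none was higher and 1 was lower. In effector minus naive none was higher and 6 were lower, with Dnaja1 at -1.79, Hsph1 at -1.67 and Hspa1b at -1.41. Postmitotic cells were above effector cells in 3 of 13, by 0.80 for Dnaja1, 0.78 for Hspe1 and 0.72 for Dnajb4, and below in none. The part of handling in the levels of Fos and Jun was not tested.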

How the data were processed

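RNA from CD8+ T cells of 3 groups was hybridised to 9 arrays, each labelled from 600 ng of RNA amplified in 2 rounds, per the labels' protocols. Per the file headers and the deposited readme, the authors reduced each array to trimmed-mean signals and matched their quantiles to naive replicate 2. They then took log2 with offsets of 50, under which no signal reads 6.64 and the lowest possible value is 5.64. Medians lay at 7.89 to 7.90 on every array, and 15.3% to 15.9% of probe sets were at or below no signal, and a shift in RNA content of whole cells cannot be seen. The authors' deposited fold ratios and p-values compare group means and are unadjusted, per the readme. No software version is given in the sources used here. Values of the series matrix matched the deposited log2 table to within 5e-09.

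All 22626 non-control probe sets were fitted with limma 3.58.1 in R 4.3.3, as group means without covariates (residual degrees of freedom 6, prior 2.22). The p-values were adjusted by Benjamini-Hochberg over all probe sets and called under 0.05, and 95% intervals come from the same fit. Every member probe set is described. In each gene list, 1 probe set a gene (highest mean) was used, and up to 3 called genes per direction are named. Symbols were updated through Entrez numbers in RefSeq's GRCm38.p6 gene table, which matched 20752 of 21259 probe sets naming 1 gene. Recovered signal, used for marker sums, is the antilog less the offsets. The fit was also run on simulated data with independent normal noise. That simulation held no pairing, no recipient cells and no floor, so it does not bear on those limits. The members and lists were chosen with earlier results of these data known. The labels call the arrays biological replicates and give the number of mice pooled for each. Whether effector and postmitotic preparations of the same number came from the same recipients is not known here.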

Additional observations from a re-analysis of the deposited data

How the results depend on the processing

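Among the alternatives run, Ier3, Fos and the brighter Jun probe set kept their calls in both comparisons of postmitotic cells under each one, and Ier3 kept its call in effector minus naive. Of the 10 member probe sets, 1 was called in effector minus naive with the replicate block or without both arrays with Y-linked signal (an alternative chosen after seeing the data), in place of 3. In postmitotic minus naive 3 were called with only the 6 arrays compared or without both arrays with Y-linked signal, in place of 5, and 2 were then higher than in both other groups, in place of 4. Leaving out 1 array gave 1 to 3 member calls in effector minus naive, 4 to 5 in postmitotic minus naive, 4 to 7 in postmitotic minus effector and 3 to 4 higher than in both. Deviations of same-numbered arrays correlated at 0.009 to 0.071, and those of differently numbered arrays at -0.052 to 0.018. Correlations this small do not settle whether replicate numbers pair the samples. With the replicate block, Junb did not pass against naive (adjusted p = 0.0747) or effector cells (0.0616), nor did Fos (0.0806) and Fosb (0.0676) in effector minus naive.

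Over all probe sets, calls in postmitotic minus naive (1854) numbered 474 with only the 6 arrays compared, 1164 with the replicate block, 3250 with trend and robust and 293 without both arrays with Y-linked signal. They numbered 859 to 1741 without 1 array, with 859 without naive replicate 3, 982 without postmitotic replicate 2, 1101 without effector replicate 3 and 1173 to 1212 without naive replicate 2, effector replicate 2 or postmitotic replicate 1 or 3. Postmitotic minus effector (4536) gave 2507 without both arrays with Y-linked signal and 3136 to 4867 without 1 array, and effector minus naive (5884) gave 4287 to 6052 without 1 array. With the mean of each gene's probe sets, fewer features were tested (13152), and 3630, 1130 and 2911 were called in effector minus naive, postmitotic minus naive and postmitotic minus effector. Probe sets higher in postmitotic cells than in both others (278) numbered 94 with only the 6 arrays compared, 180 with the replicate block, 487 with values under the 40th percentile set to it, 523 with trend and robust, 52 without both arrays with Y-linked signal and 135 to 257 without 1 array. With the mean of their probe sets, Mapk14 turned to 0.10 in effector minus naive and Bach2 to 0.05 in postmitotic minus naive. Causes were not tested. Fosb, Fosl2 and Atf3 are limited by signals near none.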

Other observations

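Of 17 measured T cell genes that are known to carry AP-1 sites, 8 were higher and 2 lower in effector than in naive cells. Their median log2 difference was 0.91, against -0.05 over all probe sets. Gzmb, a protease of cytotoxic granules, differed by 8.26, Ifng, which encodes interferon gamma, by 7.72 and the lectin gene Lgals3 by 6.57. Against naive cells, 3 were higher in postmitotic cells and none was lower. The median was 0.27, against -0.01 over all probe sets. Gzmb differed by 5.26 and Ifng by 2.04. Plaur, which encodes the urokinase receptor, differed by 0.62 (adjusted p = 0.0272) and did not pass without any 1 of the 3 postmitotic or 3 naive arrays or effector replicate 3 (adjusted p up to 0.0828), with only the 6 arrays compared (adjusted p = 0.0517) or without both arrays with Y-linked signal (0.59, adjusted p = 0.134). In postmitotic minus effector 1 of 17, Plaur (1.45), was higher and 8 were lower. The median was -0.77, against 0.03 over all probe sets. Among the 8 were Fasl, the Fas ligand (-5.81), Lgals3 (-5.73) and the chemokine gene Ccl4 (-5.69). The higher count was 2 without postmitotic replicate 1 or 3. Of all 13152 genes, fitted with 1 probe set a gene, 4052 were called in either direction in effector minus naive. In postmitotic minus naive 1556 were called, and in postmitotic minus effector 3280. Whether the list differs from this background was not tested.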
